A study of Rattus norvegicus with 22 samples.

Results

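The miR-125, miR-99 and miR-100 families of microRNAs (miRNAs) were followed in small RNA libraries from rat hippocampus. Members were all names of miR-125, miR-99 or miR-100, of either arm of the hairpin, which gave 10 of the 468 names in the deposited files. The files write them with a prefix for the rat, as in rno-miR-125a-5p and rno-miR-125b-5p, which is left out below. The members are miR-99a-5p, miR-99a-3p, miR-99b-5p, miR-99b-3p, miR-100-5p, miR-125a-5p, miR-125a-3p, miR-125b-5p, miR-125b-1-3p and miR-125b-2-3p. Chlorpyrifos (CPF), an insecticide of the organophosphate class that inhibits acetylcholinesterase, was given to the treated rats under the skin at 10 mg/kg each day for 21 days. The controls received its vehicle, peanut oil, for the same 21 days. All were male Long Evans rats, 14 weeks old, with 11 libraries per group. RNA came from the CA1 region, and the labels mention fear conditioning in some rats without saying which libraries these are.

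miR-125 is the vertebrate relative of lin-4, the worm miRNA found to time larval development, and miR-99 and miR-100 form a second family that usually lies in the same gene clusters. In mammals miR-125 and its cluster partner let-7 both act on the RNA-binding protein gene Lin28, and miR-99 and miR-100 are known to repress the growth kinase gene Mtor. In mouse neurons miR-125b has been tied to the NMDA receptor subunit gene Grin2a and miR-125a to the postsynaptic scaffold gene Dlg4.

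A miRNA recognises its targets mainly through its seed, bases 2 to 8 from the 5′ end. The mature sequences below are shown because they carry the division into families, with the seed in capitals. They come from RefSeq (build GRCr8), which matched 9 of the 10 members; the remaining one is miR-99a-5p.
miR-125a-5p: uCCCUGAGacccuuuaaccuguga
miR-125b-5p: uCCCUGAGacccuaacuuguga
miR-351-5p: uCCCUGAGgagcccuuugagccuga
miR-99b-5p: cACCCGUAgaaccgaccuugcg
miR-100-5p: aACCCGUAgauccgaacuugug
miR-125b-2-3p: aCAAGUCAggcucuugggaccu
miR-125b-1-3p: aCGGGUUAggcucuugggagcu
miR-125a-3p: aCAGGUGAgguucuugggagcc
miR-125a-5p and miR-125b-5p begin with the same 13 bases. miR-99b-5p and miR-100-5p differ at 4 of 22 positions, C1A, A11U, C16A and C21U, counted from the 5′ end with the base of miR-99b-5p first. None of these lies in the seed. The opposite arms of the miR-125 hairpins have 3 different seeds. miR-351-5p, no member by its number, was the single other name found to share a seed with a member. Only names with a RefSeq sequence under the same name could be compared.

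The libraries were shallow. Per the steps between low values, they held 47844 to 94979 miRNA reads (CPF 74134 ± 12857, control 70880 ± 6709, SD, n = 11 each), so that 1 read was worth 10.5 to 20.9 RPM, the deposited unit, in which all libraries are scaled to the same total. Reads carry no molecular identifiers, so limits drawn from them cover counting error only. The brain miRNA miR-9a-5p stood at 34986 to 59850 RPM in CPF and 38074 to 60622 RPM in control libraries, and the neuronal miR-124-3p at 465 to 1126 RPM and 398 to 1027 RPM. Neuron markers (17 names, 1 at 0 throughout) summed to 49632 to 77396 RPM in CPF and 53055 to 77422 RPM in control libraries. Most of this sum was miR-9a-5p. The list held miR-132-3p, which passed the test below (mean 1292 RPM in CPF and 698 RPM in control libraries). Oligodendrocyte markers (4 names), most of them miR-338-3p, summed to 33453 to 81828 RPM in CPF and 47329 to 90059 RPM in control libraries. Choroid plexus and ependyma markers (9 names) summed to 635 to 8005 RPM in CPF and 580 to 1097 RPM in control libraries. The highest values were in CPF replicates 7, 8 and 9, but the difference was not confined to them. The median was 1156 RPM in CPF, above the highest control library, and 817 RPM in control libraries. Vessel wall and muscle markers (8 names), most of them miR-143-3p, summed to 221172 to 313435 RPM in CPF and 222253 to 283859 RPM in control libraries. Red blood cell markers (4 names) summed to at most 79.5 RPM in CPF and 65.9 RPM in control libraries, and microglia and leukocyte markers (5 names) to 474 to 861 RPM and 522 to 825 RPM. Within that last list, leukocyte miR-223-3p averaged 1.21 RPM in CPF libraries (highest 13.4 RPM) and was listed at 0 RPM in all control libraries. The rest of the list was present in both groups. miR-142-3p averaged 25.6 RPM in CPF and 27.4 RPM in control libraries, and miR-142-5p 47.8 and 52.0 RPM. miR-146a-5p averaged 145 RPM in CPF and 135 RPM in control libraries, and miR-146b-5p 446 and 441 RPM. In whole tissue, fewer cells of a type and less miRNA per cell cannot be told apart. The labels do not tie libraries to animals, and p-values thus speak of library spread, which may be technical.

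Together the 10 members took 1.99 ± 0.0725% of all RPM in CPF and 2.07 ± 0.187% in control libraries (SD, n = 11 each). The lowest, median and highest shares were 1.89, 1.97 and 2.13% in CPF and 1.85, 2.06 and 2.43% in control libraries. All CPF libraries lay inside the range of the control libraries. Names of the miR-99 and miR-100 family took 1.55 ± 0.0812% in CPF and 1.61 ± 0.131% in control libraries. Names of the miR-125 family took 0.436 ± 0.0405% in CPF and 0.461 ± 0.0654% in control libraries.

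The members with a mean of at least 200 RPM, 6 of the 10, carried nearly all of this signal. miR-99a-5p, the most abundant, ranked 16 among all names. Its lowest, median and highest values were 6601, 8074 and 9167 RPM in CPF, against 7300.5, 8126 and 8948 RPM in control libraries. The groups overlapped, with CPF replicate 1 below all control libraries and CPF replicate 8 above them all. miR-99b-5p, from another gene cluster, ranked 24, with 4704, 4978 and 5364 RPM in CPF against 4220, 5077 and 6928 RPM in control libraries. Here the CPF libraries lay wholly inside the control range, and control replicate 7 was the highest. miR-100-5p ranked 35, with 2010, 2475 and 3107 RPM in CPF against 2333, 2575 and 2940 RPM in control libraries. For this miRNA 3 CPF libraries were below all control libraries and 1 was above them all.

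In the miR-125 family, miR-125a-5p ranked 33. It had 2320, 2642 and 3327 RPM in CPF against 2211, 2710 and 3629 RPM in control libraries as lowest, median and highest values. miR-125b-5p ranked 55, at 796, 976 and 1269 RPM in CPF against 791, 983 and 1595 RPM in control libraries. miR-125b-2-3p, the opposite arm of the second miR-125b hairpin, ranked 68, at 523, 626 and 769 RPM in CPF against 408, 704 and 925 RPM in control libraries. For these 3 names, too, all CPF libraries lay inside the control range.

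**Figure D1:**
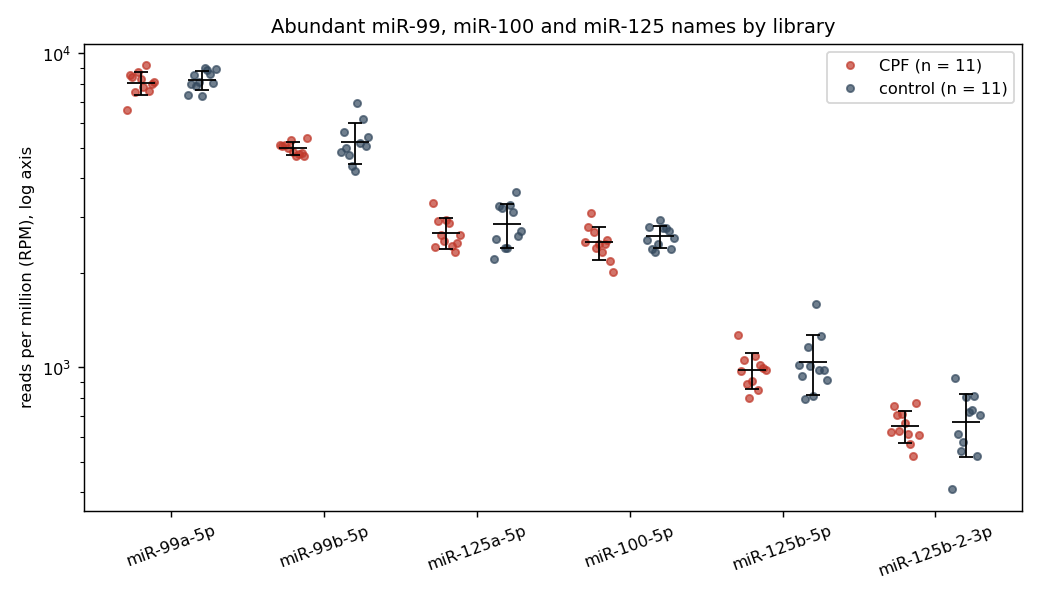
RPM on a log axis for the 6 abundant members, CPF left of control. Points are libraries (11 a group), and bars give mean ± SD; the groups overlap for each name, and control replicate 7 is the highest point for miR-99b-5p (6928 RPM) and miR-125b-5p (1595 RPM).

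Does CPF change the level of these miRNAs? None of the 8 members that passed the filter on low values (at least 10 RPM in at least 11 libraries) passed the test, and none had an unadjusted p under 0.05. The test was limma on log2(RPM + 1) over 273 names, with a threshold of 0.05 after Benjamini-Hochberg adjustment, two-sided. Of all names tested, 0.733% were called, 2 names, both higher in CPF: miR-132-3p and miR-212-5p. edgeR on reads recovered from the RPM called 4 of 140 names (2.86%), and DESeq2 5 of 418 (1.2%). They tested 6 and 10 members. Both called 0 members, and in both 0 members had an unadjusted p under 0.05.

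The intervals bound the differences that these libraries allow. miR-99a-5p averaged 8060 ± 687 RPM in CPF and 8230 ± 579 RPM in control libraries (SD, n = 11 each), a fold of 0.978 with a 95% interval of 0.903 to 1.06. miR-99b-5p averaged 4978 ± 226 RPM in CPF and 5235 ± 783 RPM in control libraries, 0.959-fold (0.870 to 1.06). miR-100-5p averaged 2501 ± 297 RPM in CPF and 2609 ± 205 RPM in control libraries, 0.955-fold (0.866 to 1.05). None of these 3 intervals reached below 0.866 or above 1.06.

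miR-125a-5p averaged 2685 ± 302 RPM in CPF and 2855 ± 465 RPM in control libraries, 0.947-fold (95% interval 0.839 to 1.07). miR-125b-5p averaged 981 ± 129 RPM in CPF and 1041 ± 228 RPM in control libraries, 0.954-fold (0.822 to 1.11). miR-125b-2-3p averaged 651 ± 76.1 RPM in CPF and 669 ± 151 RPM in control libraries, 0.991-fold (0.839 to 1.17). The adjusted p of limma ran from 0.911 to 0.974 over these 6 names. All 6 log2 fold changes were below 0, with a median of -0.063, also under median-ratio scaling, though that of miR-125b-2-3p lay above 0 without CPF replicates 7, 8 and 9 and without several single libraries. Over all 126 tested names with a mean of at least 200 RPM the median was -0.0043, and 65 were below 0. The members share clusters, seeds and libraries, so their common sign is no repeated measurement.

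**Figure D2:**
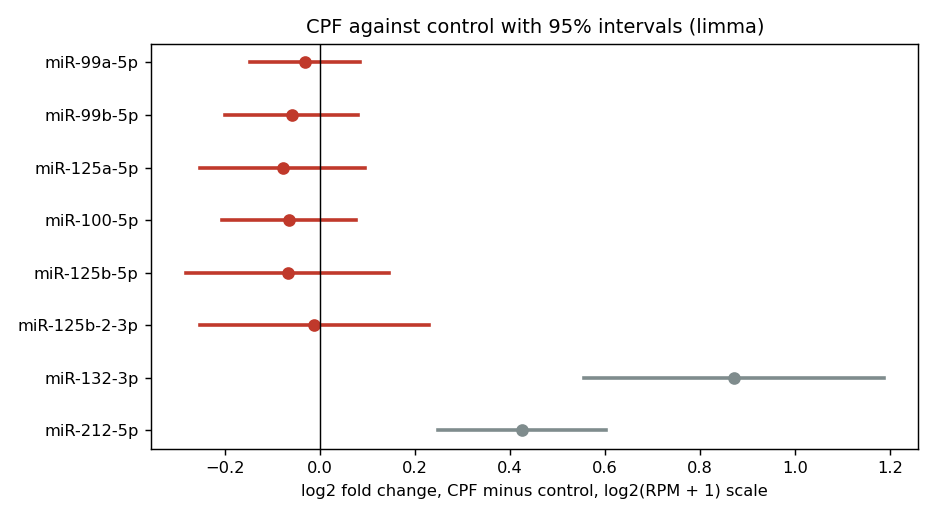
Log2 fold change of CPF over control on the log2(RPM + 1) scale, with 95% intervals from limma, for the 6 abundant members and the 2 names that passed the test. The intervals of all 6 members include 0, and those of miR-132-3p and miR-212-5p lie above it.

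The spread between libraries differed from member to member. For miR-99b-5p the SD was 4.55% of the mean in CPF and 15.0% in control libraries, where counting its reads alone gives 5.20 and 5.19%. For miR-125b-2-3p it was 11.7% in CPF and 22.6% in control libraries, against 14.4 and 14.5% from counting. miR-125a-5p had 11.3% in CPF and 16.3% in control libraries, against 7.06 and 7.03% from counting. miR-125b-5p had 13.2% in CPF and 21.9% in control libraries, against 11.7 and 11.6% from counting. For miR-100-5p the order was the other way, 11.9% in CPF and 7.87% in control libraries, against 7.36 and 7.35% from counting. For miR-99a-5p, with about 597 reads per CPF library and 583 per control library, it was 8.52% and 7.04%, against 4.09 and 4.14%. The spread of miR-99b-5p and miR-125b-2-3p in CPF libraries was thus no wider than counting error. These differences in spread were not tested.

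Levels of different miRNAs are compared here as RPM of these libraries, in which adapter ligation can favour some sequences over others. The 6 names kept the order miR-99a-5p, miR-99b-5p, miR-125a-5p, miR-100-5p, miR-125b-5p and miR-125b-2-3p in 13 of 22 libraries. The single exchange was between neighbours in the middle, since miR-125a-5p exceeded miR-100-5p in 13 of 22 libraries, and each of the other steps held in 22 of 22. The last step rests on how miR-125b-5p is counted, as its 2 rows in the files show below. miR-125a-5p and miR-100-5p thus did not differ beyond their spread, with a ratio of 1.09 ± 0.165 in CPF and 1.10 ± 0.201 in control libraries (SD, n = 11 each). Within the families, miR-99a-5p was 1.62 ± 0.154 times miR-99b-5p in CPF and 1.59 ± 0.168 times in control libraries. miR-125a-5p was 2.76 ± 0.294 times miR-125b-5p in CPF and 2.81 ± 0.555 times in control libraries. Among the names with a RefSeq sequence, miR-351-5p, encoded elsewhere in the genome, was the most abundant with the miR-125 seed. It stood at 14860 ± 1638 RPM in CPF and 14275 ± 1723 RPM in control libraries (limma adjusted p = 0.917).

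The members are made in 3 gene clusters that each hold a let-7 gene between a miR-99 or miR-100 gene and a miR-125 gene, per the RefSeq gene order in build GRCr8. These are Mir99b, Mirlet7e and Mir125a inside the gene Spaca6; Mir99a, Mirlet7c1 and Mir125b2 inside a long noncoding RNA gene; and Mir100, Mirlet7a-2 and Mir125b1 inside the host gene Mir100hgl. Genes for antisense miRNAs are annotated over 3 of these hairpins, Mir3596c over Mirlet7e, Mir3596a over Mirlet7a-2 and Mir3588 over Mir125b2. miR-3596c was listed at 0 in 22 of 22 libraries. The products of a cluster stood at different levels. miR-99b-5p was 62.9 ± 24.5 times the RPM of let-7e-5p in CPF and 51.9 ± 17.3 times in control libraries, and miR-125a-5p 33.6 ± 11.7 and 28.6 ± 10.9 times. let-7e-5p itself stood at 89.4 ± 31.2 RPM in CPF and 111 ± 38.6 RPM in control libraries, or 6.45 and 7.82 reads per library.

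In the second cluster, miR-99a-5p was 28.3 ± 5.98 times let-7c-5p in CPF and 35.7 ± 14.4 times in control libraries, although a further gene also makes let-7c-5p. In the third, miR-100-5p was 15.9 ± 4.07 times let-7a-5p in CPF and 16.9 ± 6.27 times in control libraries, again with let-7a-5p made by a further gene. The files list let-7a and let-7c also as names without an arm, at 93.4 and 320 RPM in CPF and 87.9 and 326 RPM in control libraries, so how their reads were split is uncertain. let-7c-5p itself averaged less, 295 RPM in CPF and 267 RPM in control libraries. With both let-7c names counted, the ratio of miR-99a-5p would thus be lower. The antisense miR-3596a equalled let-7a within 0.02 RPM in 22 of 22 libraries, so reads of both strands cannot be told apart there. Against the sum of let-7a-5p, let-7a and miR-3596a, miR-100-5p was 7.35 ± 1.71 times as high in CPF and 7.70 ± 1.82 times in control libraries. Of the 10 names of let-7a, let-7c and let-7e, 6 were tested and 0 passed, with a median log2 fold change of -0.045, beside 0.016 over all 273 tested names. miR-10a-5p, a relative of miR-99 and miR-100 known from endothelium and posterior body regions, was at 381 ± 193 RPM in CPF and 296 ± 190 RPM in control libraries (limma adjusted p = 0.869).

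**Figure D3:**
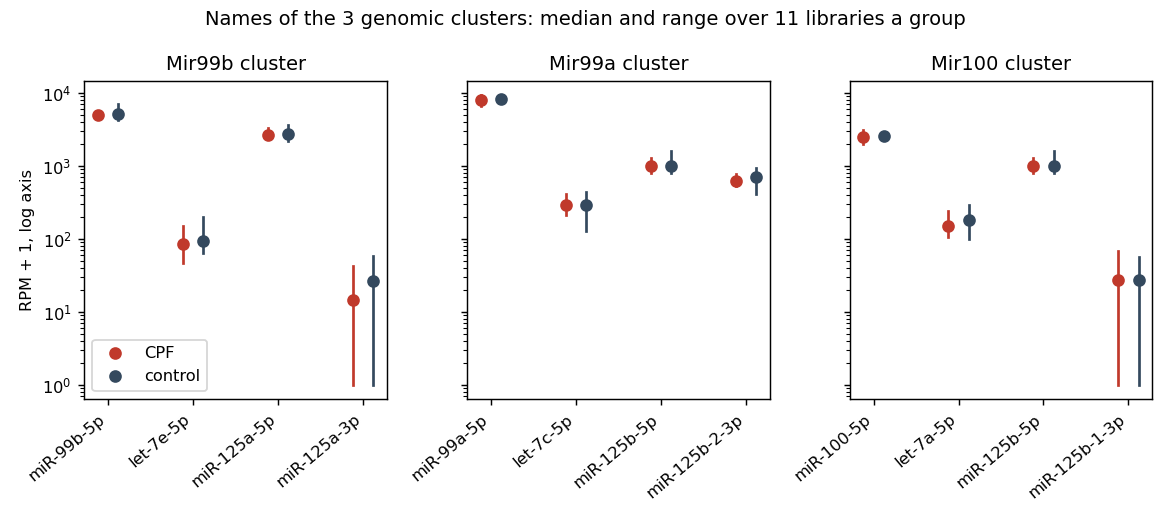
RPM + 1 on a log axis for names of the 3 gene clusters (panels), CPF left of control. Points are medians and lines run from the lowest to the highest of 11 libraries; the let-7 name lies below its miR-99, miR-100 and 5p miR-125 neighbours in each panel, and miR-125b-5p, made in both of the right clusters, is drawn in each.

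miR-125b-5p comes from 2 hairpins, whereas each of its 3p names comes from 1, so these names do not compare the arms of a single hairpin. miR-125b-2-3p stood close to miR-125b-5p, which was 1.53 ± 0.285 times as high in CPF and 1.63 ± 0.499 times in control libraries. miR-125b-1-3p, from the other miR-125b hairpin, averaged 29.4 RPM in CPF and 21.9 RPM in control libraries. It had 23 reads over all CPF and 17 over all control libraries and was at 0 in 1 and 4 of them. miR-125b-2-3p had 532 reads over all CPF and 522 over all control libraries, so the 3p arms of the 2 miR-125b hairpins stood far apart.

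The other 3p names were near the limit of detection. miR-125a-3p had 10 reads in CPF and 16 in control libraries, and miR-99a-3p had 5 and 3. miR-99b-3p had 0 reads in CPF, which allows up to 3.68 RPM (3 reads over 815469), and 2 in control libraries. No fold is given for these 4 low names, since both groups averaged under 3 reads per library. Of these, miR-125b-1-3p and miR-125a-3p were tested and did not pass. What size of difference could be detected at this depth was not worked out, so no conclusion is drawn for these names.

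miR-125b-5p stands on 2 rows of each file, and its mature sequence is encoded by 2 genes; the values above are their sum. The upper row held 669 ± 108 RPM in CPF and 670.3 ± 191 RPM in control libraries. The lower row held 312 ± 59.6 RPM in CPF and 371 ± 62.6 RPM in control libraries, and the upper row was the larger in 22 of 22. The files do not say which gene each row stands for. miR-3588, however, is annotated on the same bases as the mature miR-125b-5p of Mir125b2, on the opposite strand, so that its sequence is the reverse complement.
miR-125b-5p: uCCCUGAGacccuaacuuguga
miR-3588: uCACAAGUuagggucucaggga

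In the files miR-3588 and the lower row of miR-125b-5p had equal RPM, within 0.02 RPM, in 22 of 22 libraries. In 11 of them this value lay 0.5 read off a whole number of reads, whereas the sum of the lower row and miR-3588 was whole in 22 of 22 and the upper row in 22 of 22 (within 0.05 read). No other name equalled a row of the 6 abundant members in all libraries. The lower row and miR-3588 thus carry the same values under 2 names, and how many of their reads came from each strand cannot be told apart. Their sum was 625 ± 119 RPM in CPF and 742 ± 125.1 RPM in control libraries. The upper row exceeded this sum in 12 of 22 libraries, at a median ratio of 1.15 in CPF (lowest 0.682, highest 1.30) and 0.789 in control libraries (lowest 0.647, highest 1.39). The ranges of the ratio overlapped, and it was not tested. Against miR-125b-2-3p, the upper row alone was 1.04 ± 0.232 times as high in CPF and 1.06 ± 0.383 times in control libraries, and it was the higher in 11 of 22. With both rows and miR-3588, the ratio was 2.01 ± 0.356 in CPF and 2.21 ± 0.624 in control libraries, above 1 in 22 of 22. Whether miR-125b-5p exceeded miR-125b-2-3p thus depends on the lower row.

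Adding miR-3588 to miR-125b-5p gave 1294 ± 170.2 RPM in CPF and 1412 ± 274 RPM in control libraries, and a fold of 0.923 (95% interval 0.805 to 1.06, limma adjusted p = 0.810). With the rows kept apart, the upper row had a fold of 1.02 (0.848 to 1.23, limma adjusted p = 0.972). The lower row had a fold of 0.840 (0.703 to 1.00, limma adjusted p = 0.718), at an unadjusted p of 0.0531. These fits were added after the values had been seen.

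**Figure D4:**
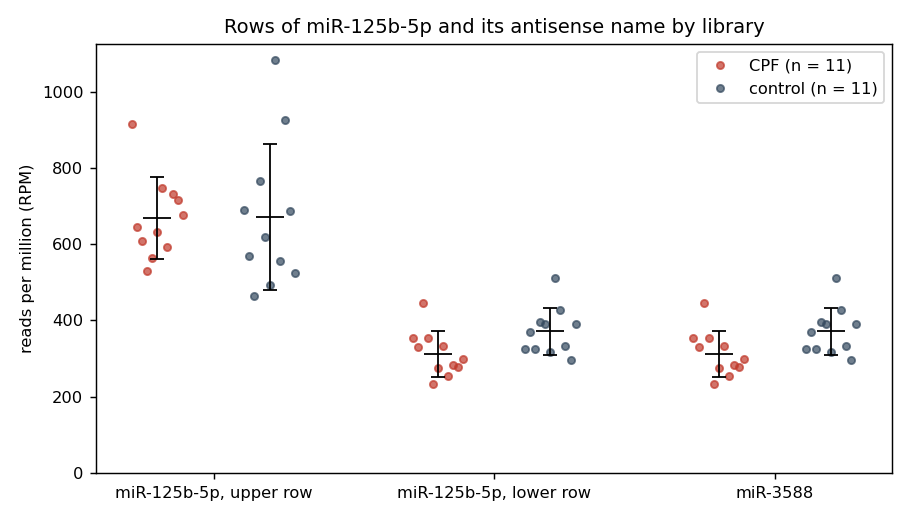
RPM of the upper and lower row of miR-125b-5p and of its antisense name miR-3588, CPF left of control. Points are libraries (11 a group), bars mean ± SD; the lower row and miR-3588 show the same points, at 312 RPM in CPF and 371 RPM in control libraries on average.

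The libraries carry code numbers whose first digit splits each group, into digits 3 (n = 6) and 6 (n = 5) in CPF and digits 1 (n = 5) and 4 (n = 6) in control. Neither its meaning nor a matching of digits across groups is stated, and digit and CPF cannot be told apart. miR-100-5p averaged 2307 ± 220 RPM at digit 6 against 2694 ± 196 RPM at digit 4, a log2 difference of -0.23 (limma unadjusted p = 0.0385, adjusted p = 0.745). At digit 3 it averaged 2663 ± 263 RPM against 2508 ± 184 RPM at digit 1, a log2 difference of 0.08 (limma adjusted p = 0.955). miR-125a-5p showed the same signs, with log2 differences of -0.20 for 6 against 4 and 0.04 for 3 against 1 (limma adjusted p = 0.745 and 0.973). So did miR-99b-5p, at -0.16 and 0.046, and miR-125b-2-3p, at -0.21 and 0.20. The log2 differences of miR-99a-5p and miR-125b-5p were below 0 in both. The other matching gave -0.02 for 3 against 4 and -0.12 for 6 against 1 in miR-100-5p. None of the 6 abundant members passed in any of the 4 pairings. CPF replicates 7, 8 and 9, highest in choroid plexus markers, all carry digit 6, and without them no member passed either. Leaving them out does not even out these markers, since the CPF median (1156 RPM) lay above the highest control library (1097 RPM).

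**Figure D5:**
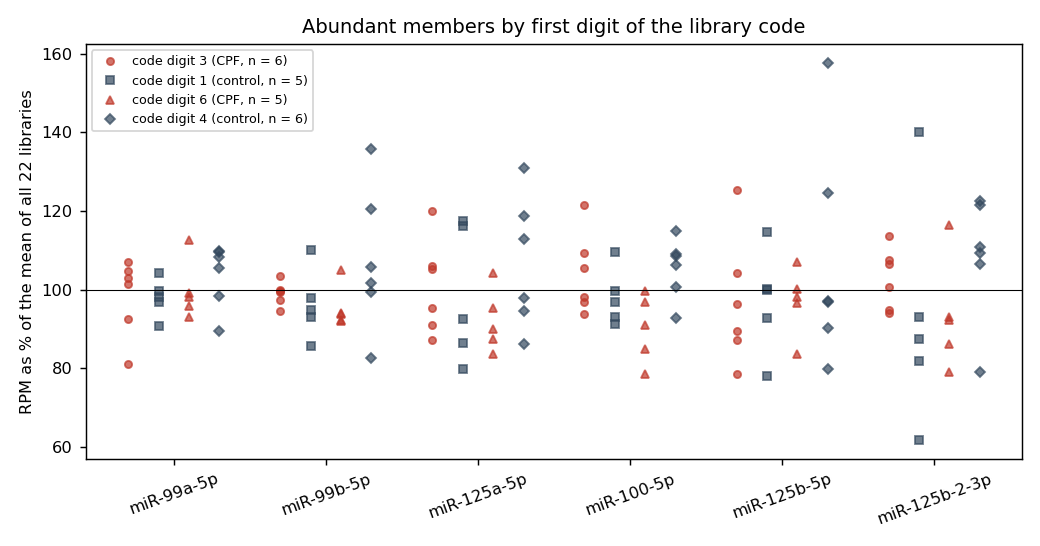
RPM of each library as a percentage of the mean of all 22 libraries, for the 6 abundant members, split by the first digit of the library code. Red points are CPF (digits 3 and 6) and dark points control (digits 1 and 4); for miR-100-5p the 5 libraries of digit 6 have the lowest mean, 2307 RPM.

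The members varied together only loosely. Over the 22 libraries, with each group's mean taken out, the 15 pairs among the 6 abundant members had Pearson's r from -0.12 to 0.55 for log2(RPM + 1), with a median of 0.26. Over all 7750 pairs of tested names with a mean of at least 200 RPM, members included, that all files hold, the median was 0.01. These values describe libraries that share depth and composition, and they were not tested. miR-99b-5p and miR-125a-5p, neighbours in a cluster, had r = 0.50 (Spearman's rho 0.43). Without the 2 libraries farthest from the median of miR-99b-5p, r was 0.38. miR-99a-5p and miR-125b-5p, neighbours in another, had r = -0.12, and 0.21 without the 2 libraries farthest from the median of miR-99a-5p. The highest of the 15 values, 0.55 for miR-99b-5p and miR-125b-5p, dropped to 0.12 without the 2 libraries farthest from the median of miR-99b-5p. Other pairs rose when trimmed by their first name, so trimming did not act in 1 direction. miR-99a-5p and miR-99b-5p went from 0.41 to 0.63, the highest trimmed value of the 15. miR-99a-5p and miR-125a-5p went from 0.12 to 0.54, and miR-99b-5p and miR-125b-2-3p from 0.35 to 0.60. miR-100-5p and miR-125b-5p had r = 0.08.

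The names most like each abundant member were picked by the highest r among 124 names. Here the 2 farthest libraries are those farthest from the median of that member. For miR-125b-5p these were miR-29a-3p (r = 0.78), miR-30e-5p (0.76) and miR-325-3p (0.75), and without the 2 farthest libraries r was 0.57, 0.48 and 0.49. For miR-125a-5p they were miR-325-3p (0.66), miR-26a-5p (0.60) and miR-30e-5p (0.60), with 0.59, 0.64 and 0.57 after that. For miR-99b-5p they were miR-22-3p (0.65), miR-30e-5p (0.60) and miR-3586-3p (0.58), which dropped to 0.26, 0.11 and 0.36 and so rest in part on those libraries. For miR-99a-5p the names were miR-138, miR-27b-5p and miR-99b-5p (0.41 to 0.48). For miR-100-5p they were let-7c, miR-3588 and miR-212-5p (0.45 to 0.52). Of these, miR-3588 (r = 0.46) carries the values of the lower row of miR-125b-5p, and so is not separate from the members. For miR-125b-2-3p they were miR-30a-3p, miR-100-5p and miR-330-3p (0.40 to 0.46), of which miR-30a-3p dropped to 0.15 without the 2 farthest libraries.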

How the data were processed

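Per the labels' protocols, TruSeq small RNA libraries were run on a HiScanSQ. The deposited files give RPM per miRNA name, per the file headers. Partek 6.6, Bowtie, cutadapt 1.2, CASAVA 1.8.2 and build rn4 are listed without roles, per the submitters' processing notes. How reads that match several genes or either strand were counted is not given in the sources used here. A full file has 484 rows and 468 names; rows of 1 name were summed (13 names). The file of control replicate 2 has 448 rows, and its other 36 were treated as missing; all members are present in it. Within 0.02 RPM, 91.3 to 97.4% of low values (under 20 reads) were whole reads, and rounded reads served the count tests as an alternative. All pairs of libraries within a group differed beyond counting noise (chi-square over its degrees of freedom at least 2.49).

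Tests used limma 3.58.1 with a trend on log2(RPM + 1) in R 4.3.3, over 273 names, and edgeR 4.0.16 and DESeq2 1.42.0 on reads; all were tested on simulated data. The design provided a count test if files held counts; they hold RPM. Members, lists and tests were chosen with earlier results of these data known. Named are all members, the let-7a, let-7c, let-7e and miR-10 names, names sharing a member's seed, the 3 names most like each tested member with a mean of at least 200 RPM, and names that passed. miR-3588, miR-3596a and miR-3596c were named after their values were seen. The marker lists also held oligodendrocyte and microglia miRNAs.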

Additional observations from a re-analysis of the deposited data

How the results depend on the processing

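No member passed in any of the 22 settings that left out 1 library or in the 15 other settings. The number of names called over all miRNAs was 2, and 2 to 3 without a library. It was 4 with edgeR on recovered reads, 5 with DESeq2 on recovered reads, and 1 in each of the 4 code digit pairings, which hold fewer libraries. Signs near 0 turned in some settings, always without a call. For code digit 3 against 1 the log2 fold change was 0.046 for miR-99b-5p, 0.044 for miR-125a-5p, 0.084 for miR-100-5p and 0.20 for miR-125b-2-3p. For code digit 6 against 1 it was 0.024 for miR-99a-5p, 0.0065 for miR-125b-5p and 0.048 for miR-125b-2-3p. Without CPF replicates 7, 8 and 9 it was 0.058 for miR-125b-2-3p, and for this name it ran from -0.080 to 0.038 without single libraries, with -0.012 over all libraries. It was above 0 without CPF replicate 8 or 9 or control replicate 2, 6, 7, 8 or 9. The cause was not tested. The difference in the members' summed share, CPF minus control, was -0.078 percentage points, and -0.10 to -0.042 without single libraries. It was 0.045 for code digit 3 against 1, -0.19 for 6 against 4, -0.12 for 3 against 4 and -0.026 for 6 against 1, so its sign and size depend on which libraries are compared.

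Same-numbered libraries shared little deviation from their group means. Of the 11 same-numbered pairs, 2 had deviations correlated over 0.1, and 2 of 22 libraries correlated best with their own number. Matched rats need not share such deviations, so this cannot decide whether the numbers pair rats. With the replicate block 2 names and 0 members were called. Depth limits the 3p names other than miR-125b-2-3p.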
